A study of Mus musculus with 8 samples.

Results

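Long intergenic noncoding RNAs (lincRNAs) are transcribed from their own start sites outside protein-coding genes. The regions described here are the peaks of H3K4me3, trimethylation of histone H3 at lysine 4, that lie within 1 kb of a lincRNA start and within 1 kb of no start of a protein-coding gene. They were chosen by position alone, from the peak lists of 3 conditions and the gene types of an annotation of mouse build mm9 (Ensembl release 65). Of 1273 annotated lincRNA genes, 146 met this rule (11.5%, 95% Wilson interval 9.83 to 13.3%). They had 425 peaks, 146 in the NT list, 139 in the curdlan list and 140 in the curdlan+FK506 list. Overlapping peaks of the lists were merged into 147 loci, out of 16088 merged H3K4me3 regions in all. A further 467 lincRNA genes had peaks that also reached a protein-coding start and were left out, and 660 lincRNA genes had no peak.

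The cells were D1 cells, a long-term line of dendritic cells from mouse spleen (C57BL/6 in the labels). H3K4me3 was mapped by ChIP-seq in non-treated cells (NT), in cells given 10 µg/ml curdlan for 2 h, and in cells given curdlan with FK506 for 2 h. Curdlan is a β-glucan that activates the receptor dectin-1, and FK506 blocks calcineurin and thereby NFAT. A further ChIP mapped NFATc2 after 30 min of curdlan, in D1 cells that carried a lentiviral NFATc2 with a V5 tag, so it reads the added protein (called NFAT1 in the labels). A condition was represented by a single ChIP library with its input, so no test between conditions was possible, and the intervals given cover counting error only.

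H3K4me3 marks the starts of active and poised genes, both protein-coding and noncoding, and is densest just downstream of the start. It is common at CpG islands, stretches rich in the dinucleotide CG. NFATc2 is a transcription factor that moves to the nucleus after calcineurin removes phosphates from it, and it binds DNA around the core GGAAA. Many lincRNAs work in the nucleus near their own gene, as Xist does in silencing an X chromosome, and others serve mainly as precursors of small RNAs.

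The ChIP libraries held 16662316 tags for NT, 21289349 for curdlan, 19468498 for curdlan+FK506 and 14377535 for NFATc2, with 51.3 to 57.9% of the H3K4me3 tags inside peaks. Tags in a peak were therefore scaled to 1000000 tags of its library and are given as RPM. Of 10 dendritic cell genes checked, 9 had an H3K4me3 peak at their start in every list, among them Itgax (CD11c), Clec7a (dectin-1) and Irf8. Flt3 had none. Of 21 marker genes of other cell types, Lck was the only one with a peak.

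The sequences of 5 lincRNA promoters are shown because they cover low and high CpG content and the largest changes described in this section. Each runs from 250 bases before to 50 bases after the start, 5′ to 3′ on the strand of the lincRNA, in build mm9, with every CG in capitals.
Gm14636 (chrX:18744309-18744608, minus strand): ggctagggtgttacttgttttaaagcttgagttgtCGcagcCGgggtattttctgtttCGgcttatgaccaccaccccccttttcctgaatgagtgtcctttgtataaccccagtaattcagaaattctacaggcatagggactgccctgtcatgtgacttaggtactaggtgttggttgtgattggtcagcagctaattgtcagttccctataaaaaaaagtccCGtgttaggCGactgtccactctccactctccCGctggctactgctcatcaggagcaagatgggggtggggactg
Xist (chrX:100678507-100678806, minus strand): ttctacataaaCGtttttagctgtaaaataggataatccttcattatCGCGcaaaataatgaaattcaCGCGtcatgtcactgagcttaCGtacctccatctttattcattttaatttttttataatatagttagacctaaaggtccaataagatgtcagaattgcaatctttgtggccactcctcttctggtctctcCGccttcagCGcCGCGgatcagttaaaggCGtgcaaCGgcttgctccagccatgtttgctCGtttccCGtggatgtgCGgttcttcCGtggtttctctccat
Airn (chr17:12934014-12934313, plus strand): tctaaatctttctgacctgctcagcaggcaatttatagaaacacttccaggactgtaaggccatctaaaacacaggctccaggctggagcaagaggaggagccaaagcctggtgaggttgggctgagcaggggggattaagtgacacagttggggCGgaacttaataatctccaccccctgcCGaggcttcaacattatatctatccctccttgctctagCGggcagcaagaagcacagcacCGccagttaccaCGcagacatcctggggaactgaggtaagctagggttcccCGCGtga
4833407H14Rik (chr19:53534871-53535170, plus strand): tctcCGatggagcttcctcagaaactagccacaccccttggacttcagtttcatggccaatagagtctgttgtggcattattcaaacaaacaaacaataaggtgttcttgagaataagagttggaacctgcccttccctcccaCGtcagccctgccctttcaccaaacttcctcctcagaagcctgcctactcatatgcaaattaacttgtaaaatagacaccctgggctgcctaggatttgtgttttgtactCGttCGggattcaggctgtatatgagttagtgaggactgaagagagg
G730013B05Rik (chr16:50528365-50528664, plus strand): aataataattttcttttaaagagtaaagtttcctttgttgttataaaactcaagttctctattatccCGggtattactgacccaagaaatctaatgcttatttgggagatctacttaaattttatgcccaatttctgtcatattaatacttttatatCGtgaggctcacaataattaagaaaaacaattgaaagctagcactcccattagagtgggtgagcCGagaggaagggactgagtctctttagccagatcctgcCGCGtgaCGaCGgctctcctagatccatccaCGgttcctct
The Xist promoter held 16 CG (observed over expected ratio 1.21), that of G730013B05Rik 8 (0.729), that of Airn 7 (0.328), that of Gm14636 6 (0.334) and that of 4833407H14Rik 4 (0.251). Gm14636, which had the most H3K4me3 tags of all loci, thus had a CG-poor start, while the Xist start was among the richest.

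NFATc2 summits close to a marked lincRNA start are shown next, because they are among the nearest to such starts. Each window has 50 bases to each side of the summit, on the strand of the lincRNA, in build mm9. Capitals mark the motif GGAAA, or GGAAAA where a further A matched, on this or the opposite strand.
9430008C03Rik (chr2:158187192-158187292, minus strand): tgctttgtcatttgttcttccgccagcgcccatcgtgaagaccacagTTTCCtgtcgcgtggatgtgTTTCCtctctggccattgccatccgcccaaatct
A630072L19Rik (chr12:102179882-102179982, plus strand): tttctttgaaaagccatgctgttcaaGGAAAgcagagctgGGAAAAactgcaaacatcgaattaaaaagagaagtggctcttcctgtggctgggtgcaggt
Gm16197 (chr17:29215887-29215987, minus strand): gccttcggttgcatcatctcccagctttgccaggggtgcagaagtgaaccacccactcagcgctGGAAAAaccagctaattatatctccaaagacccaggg
Gm17034 (chr6:82714257-82714357, plus strand): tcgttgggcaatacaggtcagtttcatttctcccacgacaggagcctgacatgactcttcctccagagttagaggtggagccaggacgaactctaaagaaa
Gm11292 (chr13:22118434-22118534, plus strand): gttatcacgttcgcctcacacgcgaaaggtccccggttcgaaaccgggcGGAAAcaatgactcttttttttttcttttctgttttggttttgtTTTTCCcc
1110002J07Rik (chr10:66382842-66382942, minus strand): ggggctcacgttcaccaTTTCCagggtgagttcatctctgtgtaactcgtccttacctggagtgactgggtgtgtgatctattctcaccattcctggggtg
4833417C18Rik (chr11:95720248-95720348, plus strand): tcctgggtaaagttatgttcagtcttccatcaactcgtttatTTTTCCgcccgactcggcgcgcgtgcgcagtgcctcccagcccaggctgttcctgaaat
The Gm17034 window held no GGAAA on either strand, and the windows of 9430008C03Rik and 1110002J07Rik held GGAAA without the further A. The other windows shown held GGAAAA.

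Most of the marked lincRNAs have no name beyond a clone or model number, and 120 of the 147 loci carry a Gm or Rik symbol. All 146 genes had a transcript of more than 1 exon. A RefSeq entry was found for 107 loci by Ensembl gene identifier, symbol or synonym, and 95 of these are typed lncRNA there. RefSeq types 5 as protein-coding (2 loci at Ppp1r3e, BC029722, Ttc28 and 1810058I24Rik) and 6 as transcribed pseudogenes. The lincRNA type of at least these 11 loci thus depends on the annotation. For the loci without a RefSeq entry, the type could not be checked in this way. The loci lay on 20 chromosomes, 13 of them on X.

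The start lay inside the peak at 132 of 147 loci, and the summit was a median of 283 bp from the start. At 100 loci the summit was downstream of the start, in the direction of transcription. The nearest protein-coding start was a median of 23.4 kb away and at least 1495 bp, with 17 loci closer than 5 kb and 38 farther than 50 kb. Of the 17 loci within 5 kb, 9 were divergent from the coding gene, 5 convergent and 3 on the same strand. Near the 1 kb limit, the 4632428C04Rik peak in NT (74 tags, 738 bp from the start) was inside it. A further NT peak at Gpr137b-ps (71 tags, 1033 bp) was outside, while other peaks at this gene met the rule.

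The amount of H3K4me3 was similar in the 3 conditions. A lincRNA peak had a median of 27.5 RPM in NT (range 1.38 to 181), 26.2 with curdlan (3.05 to 189) and 24.5 with curdlan+FK506 (2.21 to 183). The median length was 2467, 2626 and 2501 bp in the same order. Per kb of peak, the median was 10.5, 9.34 and 8.87 RPM per kb. Peaks at protein-coding starts were denser, with medians of 13.9, 12.3 and 12.2 RPM per kb, and peaks at neither kind of start were sparser, with 4.95, 4.60 and 4.70. The lincRNA loci thus stood between both classes in every list.

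**Figure D1:**
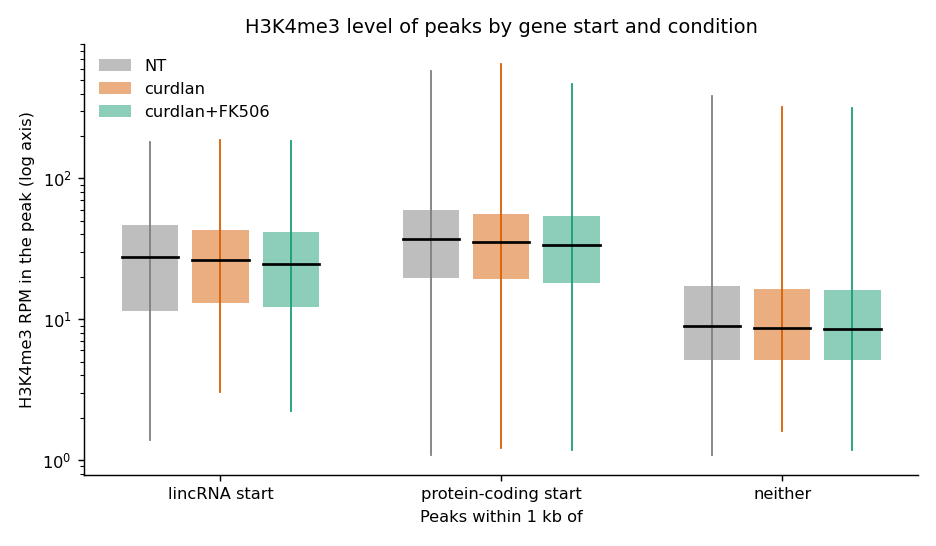
H3K4me3 RPM in each peak (vertical log axis) for peaks at a lincRNA start, at a protein-coding start (including those also near a lincRNA start) and at neither, in NT, curdlan and curdlan+FK506. Boxes span the middle 50% of peaks, black lines are medians and vertical lines the range. The lincRNA medians of 27.5, 26.2 and 24.5 lie below those at protein-coding starts (37.0, 35.3 and 33.9) and above those at neither (8.88, 8.60 and 8.58).

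Gm14636 on X, 314087 bp from the nearest coding start, had the largest peak, with 181 RPM in NT, 189 with curdlan and 183 with curdlan+FK506. It covered 9543, 10171 and 10317 bp (chrX:18736273-18746615), so that its density of 18.98, 18.5 and 17.7 RPM per kb was not the highest. Dleu2, a host gene of microRNAs that hold back the cell cycle, had 147, 130 and 124 RPM at its main locus (chr14:62261245-62270213). A second start of Dleu2 had 53.1, 44.6 and 50.2. Gm17446, 68757 bp from the start of Irg1 (the itaconate-producing enzyme of myeloid cells), had 138, 118 and 126 RPM. The differences between conditions were small beside the differences between loci.

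Pvt1, which lies 50639 bp from Myc and is amplified with it in tumours, had 129, 104 and 100 RPM (chr15:61868725-61873693). Gm14005, which RefSeq names Morrbid and which controls the lifespan of short-lived myeloid cells, had 98.9, 86.7 and 93.2. These were also the densest NT peaks of those named here, with 26.5 RPM per kb for Gm14005 and 26.0 for Pvt1. Among the other loci with the most NT tags, Gm17422 had 132, 87.9 and 94.7 RPM, Gm16897 118, 102 and 109, and Gm16170 115, 96.4 and 96.4. For 2310001H17Rik, 37421 bp from the activation marker Cd69, the values were 94.5, 83.5 and 81.3, and for 2410006H16Rik 86.2, 73.9 and 77.8.

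Well-studied lincRNAs were looked up by name. Names that the annotation lacks or types otherwise were not counted, among them Jpx, Ftx and Firre, which it holds under other symbols. Of 20 that the annotation types as lincRNA, 10 were marked away from coding starts, 4 had a peak that also reached a coding start (Tug1, Gas5, Snhg1 and A930024E05Rik) and 6 had no peak. The 6 were Tsix (the antisense partner of Xist), Meg3, Rian and Mirg (the maternally expressed cluster of the Dlk1-Dio3 domain), Miat and Rmst. Xist had 78.7 RPM in NT, 68.2 with curdlan and 66.2 with curdlan+FK506 (chrX:100675259-100679862). Airn, whose transcription silences Igf2r on the paternal chromosome, had 20.6, 21.8 and 28.3, and its peak lay inside Igf2r. For 1700020I14Rik (RefSeq Oip5os1, the conserved RNA called Cyrano), the values were 77.6, 64.3 and 60.3.

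Other genes of the X-inactivation centre were marked too, chosen after their values were seen. Enox (RefSeq Jpx, an activator of Xist) had 26.5, 27.2 and 26.5 RPM. B230206F22Rik (Ftx) had 2 marked starts, with 29.8, 26.9 and 26.2 RPM at the first and 47.4, 35.1 and 32.5 at the second. The X-linked 6720401G13Rik (Firre), a lincRNA that anchors the inactive X in the nucleus, had 31.0, 28.5 and 27.4. Mir155, the precursor of a microRNA of activated myeloid cells, had 12.1, 11.5 and 10.4, and its window of 300 bases held no CG. None of these differed by as much as 1.5-fold after centring.

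At 9 loci, the start of a small nucleolar RNA gene also lay within 1 kb of the locus. Small nucleolar RNAs guide chemical modification of ribosomal RNA, and many are made from the transcript of a host gene. The 9 loci were taken as hosts by position only. Snhg4 had 37.1, 45.7 and 42.5 RPM in NT, curdlan and curdlan+FK506. Snhg5 had 69.1, 49.1 and 51.3, Snhg7 44.7, 40.6 and 43.9, and Snhg12 33.2, 27.6 and 29.3. Gm11974 (RefSeq Snhg15) had 74.8, 91.3 and 94.3, and 9430008C03Rik (Snhg17) 45.1, 52.7 and 53.1. Of the hosts named, Snhg4, Snhg7, Gm11974 and 9430008C03Rik had ratios of curdlan to NT above the centre in RPM and per kb. Snhg7 was only just above it in RPM. Snhg5 was below the centre in both, though not by fold enrichment. The median log2 ratio of the 9 was 0.21 for curdlan over NT, beside -0.04 for all lincRNA loci with a ratio. The 9 ranged from -0.35 to 0.44, none past 1.5-fold, and the difference was not tested.

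Nearly every locus was marked in all conditions. A peak was present in all 3 lists at 135 of 147 loci (91.8%, 86.3 to 95.3%), beside 83.9% of all regions, 95.5% of regions at protein-coding starts and 58.3% of regions at neither. No locus had a peak in the curdlan list alone, which allows a share of up to 2.55%, beside 2.24% of all regions. Absence from a list means that the signal was below the threshold of the peak caller. The 12 loci outside the shared set had few tags, with a median of 5.85 RPM at those with an NT peak, beside 28.7 at loci in all lists.

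Of those 12, 5 had a peak in NT only, 2 in NT and curdlan, 1 in NT and curdlan+FK506, 3 in curdlan and curdlan+FK506 and 1 in curdlan+FK506 only. The shares of all regions were 5.13%, 2.99%, 2.64%, 1.399% and 1.72% in the same order, so these counts are near the background. Among the NT-only loci, the 3 with the most tags were Gm17034, BC065403 (both 115 tags) and Gm16617 (86 tags). Gm17034 lies inside Hk2, the gene of the glycolytic enzyme hexokinase 2, and Gm16617 inside Arhgef40. Raxos1 had 112 tags in NT and 164 with curdlan but no peak with FK506, and Gm11538, near Hoxb13, had 60 and 78 and likewise none. Gm8378, inside Ston2, had 109 tags in NT and 121 with curdlan+FK506 and no curdlan peak. With curdlan and with curdlan+FK506 but not in NT, a peak was present at 3 loci, D230017M19Rik (85 and 67 tags), Gm7677 (73 and 43) and 1110036E04Rik (66 and 67). The second locus of Gm16862 had 233 tags with curdlan+FK506 and no peak in NT or curdlan, the most tags of the 12.

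To compare conditions, the log2 ratio of RPM was taken at each locus with a peak in both lists and centred on the median of all H3K4me3 regions with a peak in both, which was -0.14 for curdlan over NT, -0.05 for curdlan+FK506 over curdlan and -0.19 for curdlan+FK506 over NT. The 3 loci in which a list's peak did not itself meet the rule (Gm17422, Gm17487 and the first locus of Gm16862) were left out of ratios. The 3 comparisons share libraries with each other. Since peaks were called in each library on its own, a ratio of tags also moves with how far the peak was called. The covered length and the RPM per kb, centred likewise, are given beside it.

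With curdlan, 1 of 134 loci was more than 2-fold higher than in NT, beside 1.35% of all regions, and 0 were more than 2-fold lower, beside 0.286%. Past 1.5-fold, 5 were higher and 2 lower, beside 4.34% and 2.74% of all regions, so the lincRNA loci were near the background. Their median log2 ratio was -0.04, with a middle 50% that spanned 0.34 and a range from -0.69 to 1.02. Per kb of peak the range was -0.68 to 0.48, and 0 loci were higher and 1 lower past 1.5-fold, beside 2.15% and 1.72%. By fold enrichment, 4 loci were higher and 5 lower past 2-fold, beside 4.11% and 4.29% of all regions. Tags and tags per kb had the same sign at 97 of 134 loci.

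The largest ratio was at 4833407H14Rik on chromosome 19 (chr19:53534269-53540677), a lincRNA 68478 bp from Dusp5, the gene of an ERK phosphatase. Tags at the locus numbered 437 in NT, 1022 after curdlan and 961 after curdlan+FK506, or 26.2, 48.0 and 49.4 RPM. After centring, curdlan was 2.02-fold NT (counting interval 1.81 to 2.27), and curdlan+FK506 was 1.06-fold curdlan (0.971 to 1.16). The peak covered 2394 bp in NT and 6343 and 6409 bp in the other conditions, so its density was 11.0 RPM per kb in NT and 7.57 and 7.70 thereafter. The direction therefore turned per kb (log2 -0.34), and also with the fold enrichment of the lists (-0.70).

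The widening was on the downstream side. The upstream edge of the 4833407H14Rik peak was at -763 bp from the start in NT, -802 bp with curdlan and -852 bp with curdlan+FK506. The downstream edge was 1630 bp after the start in NT and 5540 and 5556 bp after it in the stimulated libraries. A further lincRNA, 5830416P10Rik, starts 4165 bp downstream on the opposite strand. Its start was inside the curdlan and curdlan+FK506 peaks and was not reached in NT. An NFATc2 summit with 324 tags lay 195 bp from the 5830416P10Rik start, and 6 NFATc2 summits lay within 20 kb of the locus, the most of any marked lincRNA locus. The nearest coding gene Dusp5 had 167, 242 and 258 RPM at its own start, a centred log2 ratio of 0.67 for curdlan over NT.

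A like extension was seen at 1110002J07Rik (chr10:66378761-66384348), where the downstream edge was 1141 bp after the start in NT and 4245 and 4115 bp after it in the stimulated libraries. It had 358, 655 and 532 tags over 2400, 5588 and 5346 bp. Curdlan was 1.58-fold NT in tags (1.39 to 1.81) but lower per kb (log2 -0.50) and by fold enrichment (-0.18). At Gm13657, with 347, 622 and 440 tags, the upstream edge was at -990 bp from the start in NT, -2577 bp with curdlan and -987 bp with curdlan+FK506. Its ratio of curdlan to NT was 1.55 (1.36 to 1.77) in tags and slightly below the centre per kb (log2 -0.08), and above it by fold enrichment (0.42).

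Other loci gained tags with a smaller change of extent. AI854517 (RefSeq Mir9-3hg, a host of the neuronal microRNA miR-9) had 866, 1519 and 1228 tags over 4318, 4976 and 4840 bp, 1.52-fold with curdlan (1.395 to 1.65), and was also higher per kb (log2 0.45) and by fold enrichment (0.44). Gm3764 had 89, 165 and 163 tags over 1545, 2122 and 1987 bp. Its curdlan ratio was 1.604 (1.23 to 2.10) in tags, above the centre per kb (log2 0.28) and below it by fold enrichment (-0.83). These were the 5 loci past 1.5-fold, and 2 of them, AI854517 and Gm3764, were above the centre per kb.

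The next 3 ratios lay just under 1.5-fold. Gm16956 had 138, 237 and 163 tags and A430072P03Rik had 229, 392 and 327, with ratios of 1.49 and 1.48 and log2 values near 0 per kb (0.01 and -0.03) but above the centre by fold enrichment (1.17 and 0.55). Gm10425, 11523 bp from Tnfaip2 (a TNF-induced gene), had 314, 510 and 435 tags, 1.41-fold with curdlan (1.22 to 1.62) and higher per kb (0.46), but lower by fold enrichment (-0.64). Tnfaip2 itself had 49.5, 87.7 and 84.5 RPM. From Gm3764 down to Gm10425 the counting intervals overlapped, so the order of these 7 loci is not resolved.

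**Figure D2:**
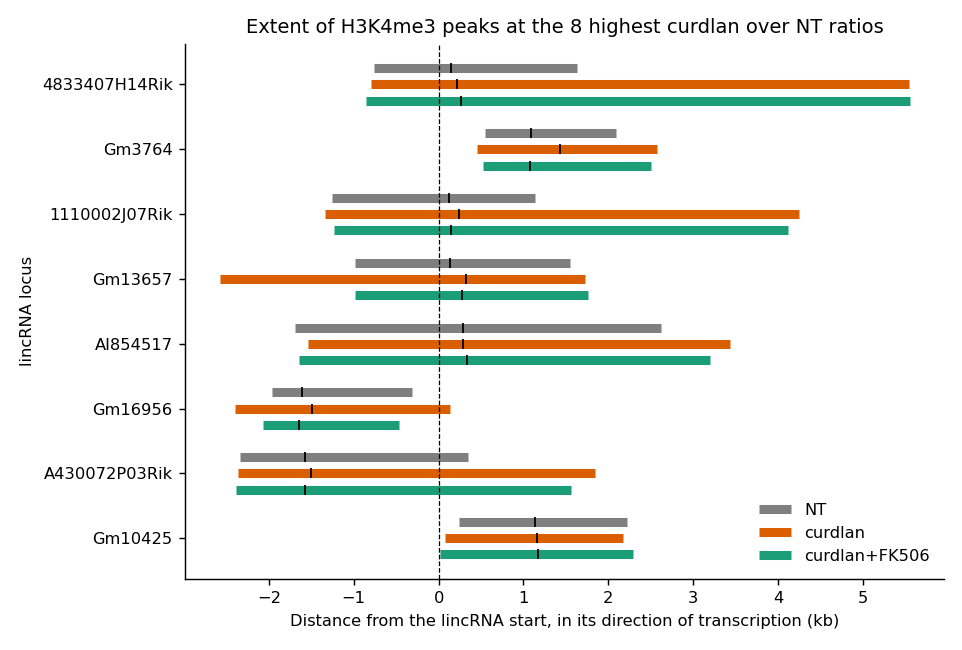
Extent of the H3K4me3 peak in NT (grey), curdlan (orange) and curdlan+FK506 (green) at the 8 loci with the highest ratio of curdlan to NT, as distance from the lincRNA start in its direction of transcription (kb). The dashed line is the start, black ticks are peak summits, and the pair of curdlan+FK506 peaks at A430072P03Rik is drawn as 1 span. At 4833407H14Rik and 1110002J07Rik the stimulated peaks end 5540 and 4245 bp downstream with curdlan, beside 1630 and 1141 bp in NT.

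The lowest ratio of curdlan to NT was at A630072L19Rik (chr12:102178665-102182561), inside Ccdc88c. Its tags numbered 1281, 915 and 784 in NT, curdlan and curdlan+FK506, or 76.9, 43.0 and 40.3 RPM, over 3894, 3693 and 3135 bp. Curdlan was 0.618-fold NT (0.567 to 0.673), with a log2 ratio of -0.57 per kb and -0.40 by fold enrichment, so the direction was the same on each scale. An NFATc2 summit lay 20 bp upstream of this start. For curdlan+FK506 over curdlan, the ratio was 0.967 in tags (0.878 to 1.07), with log2 values of 0.16 per kb and 0.66 by fold enrichment, so that its direction depended on the scale.

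Lower tags were also found at 9330111N05Rik, with 96, 72 and 63 tags (0.649-fold, 0.471 to 0.890), and at Gm13814, with 458, 365 and 275 (0.689-fold, 0.599 to 0.793). Both were lower per kb (log2 -0.40 and -0.41) and higher by fold enrichment (0.29 and 0.70). 4933439K11Rik had 473, 384 and 318 tags (0.702-fold) and a log2 ratio per kb of -0.01. At Gm16096, inside 9030425E11Rik, the peak shortened from 3359 to 1777 bp, and its 253, 208 and 194 tags were 0.711-fold by tags but higher per kb (0.48) and by fold enrichment (0.16). Gm4651 (0.716-fold), Gm14488 (0.725) and 1700113A16Rik (0.754) completed the 8 lowest, the last of these above the centre by fold enrichment (0.32). The lowest density ratio was at Gm17274, chosen after its values were seen, with 372, 329 and 252 tags and -0.68 per kb.

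**Figure D3:**
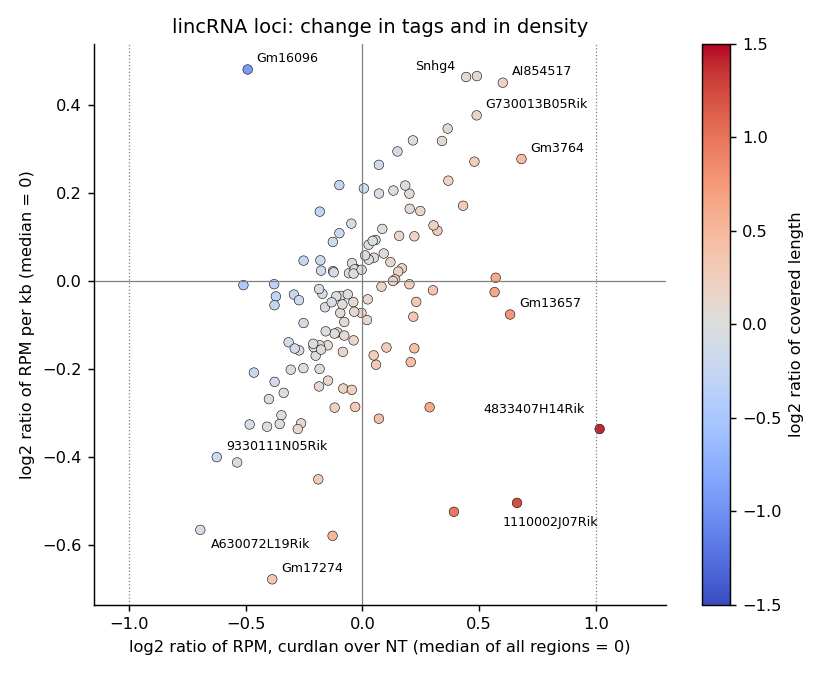
Centred log2 ratio of curdlan to NT for 134 lincRNA loci, in RPM (horizontal axis) and in RPM per kb of peak (vertical axis), coloured by the log2 ratio of covered length. Dotted lines mark 2-fold. Points at lower right, such as 4833407H14Rik and 1110002J07Rik, have more tags over a longer peak, and 97 of 134 loci have the same sign on both axes.

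The ratios of curdlan+FK506 to curdlan were narrower in tags, at these loci and at all regions alike, with a middle 50% that spanned 0.17 in both. Of 135 loci, 0 were past 2-fold in either direction, beside 0.0583% of all regions higher and 0.27% lower, and past 1.5-fold 0 were higher and 1 lower, beside 0.372% and 1.17%. The median log2 ratio was 0.02. By fold enrichment 8 loci were higher and 2 lower past 2-fold, beside 3.75% and 3.95% of all regions. The locus past 1.5-fold was Gm7677, with 73 and 43 tags (0.665-fold, 0.445 to 0.982), which had no NT peak and was above the centre by fold enrichment (0.17).

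Next came G730013B05Rik on chromosome 16 (chr16:50528113-50530897), whose tags were higher with curdlan and back near NT with FK506. The tags there numbered 252 in NT, 409 after curdlan and 260 after curdlan+FK506, or 15.1, 19.2 and 13.4 RPM, over 2481, 2785 and 2489 bp. Curdlan was 1.404-fold NT (1.20 to 1.65), and curdlan+FK506 was 0.717-fold curdlan (0.612 to 0.840). Per kb both signs held (log2 0.38 and -0.35), whereas by fold enrichment both turned (-0.11 and 0.38). Gm16956 had the same order in tags (0.776-fold with FK506, 0.632 to 0.951), as did Gm13657 (0.798, 0.705 to 0.903), and both were above the centre per kb with FK506 (0.27 and 0.29). A030009H04Rik (RefSeq Rnf227), with 169, 148 and 96 tags, was 0.732-fold (above the centre by fold enrichment, 0.32), and Gm17311, 64824 bp from Ptgs2, was 0.785-fold.

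Airn had the highest ratio of curdlan+FK506 to curdlan. The counts were 344, 464 and 551 tags in the order NT, curdlan and curdlan+FK506, over 2531, 2856 and 3072 bp. The ratio was 1.34 (1.18 to 1.52) in tags, with a log2 ratio of 0.29 per kb and 1.42 by fold enrichment. The fold enrichment itself was 62.6 in NT, 38.5 with curdlan and 84.7 with curdlan+FK506, so for curdlan over NT it went the other way (log2 -1.42) from the tags (0.22). Gm16386 followed with 63, 68 and 79 tags (1.31, 0.936 to 1.84), an interval that includes 1. 2310031A07Rik was 1.25-fold in tags and lower per kb (-0.19), Abhd1 was 1.19-fold in tags and lower by fold enrichment (-0.13), and 9530082P21Rik was 1.18-fold in tags with 0.01 per kb. In curdlan+FK506 over NT, 1 of 133 loci was more than 2-fold higher and 0 lower, beside 1.02% and 0.28% of all regions, and past 1.5-fold 3 were higher and 6 lower, beside 3.44% and 2.39%. By fold enrichment 4 were higher and 4 lower past 2-fold, beside 3.59% and 3.91%.

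NFATc2 summits were common near the marked lincRNAs. A summit lay within 20 kb of the lincRNA start at 65 of 147 loci (44.2%, 36.4 to 52.3%), and 26 of these had 2 or more. A summit lay inside the H3K4me3 locus at 30 of 147 (20.4%, 14.7 to 27.6%), beside 12.5% of regions at protein-coding starts (11.9 to 13.2%) and 18.9% of regions at neither (17.9 to 20.03%). At 20 loci it was within 1 kb of the start, 12 of them upstream.

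Counted by gene, 46.6% of the marked lincRNA genes had a summit within 20 kb (38.7 to 54.7%), beside 16.1% of lincRNA genes without a peak (13.5 to 19.1%). Protein-coding genes with an H3K4me3 peak had 37.1% (36.2 to 38.0%) and those without 11.3%. Within 1 kb the shares were 15.1% of marked and 0.455% of unmarked lincRNA genes. LincRNA genes whose peaks also reached a coding start had 38.3% within 20 kb (34.0 to 42.8%), overlapping the interval of the marked ones. The intervals for marked lincRNA genes and coding genes with a peak did not overlap at 20 kb. At 50 kb they did, with 61.6% (53.6 to 69.1%) beside 56.9% (56.0 to 57.9%). Adjacent genes can share a summit, and the difference was not tested.

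**Figure D4:**
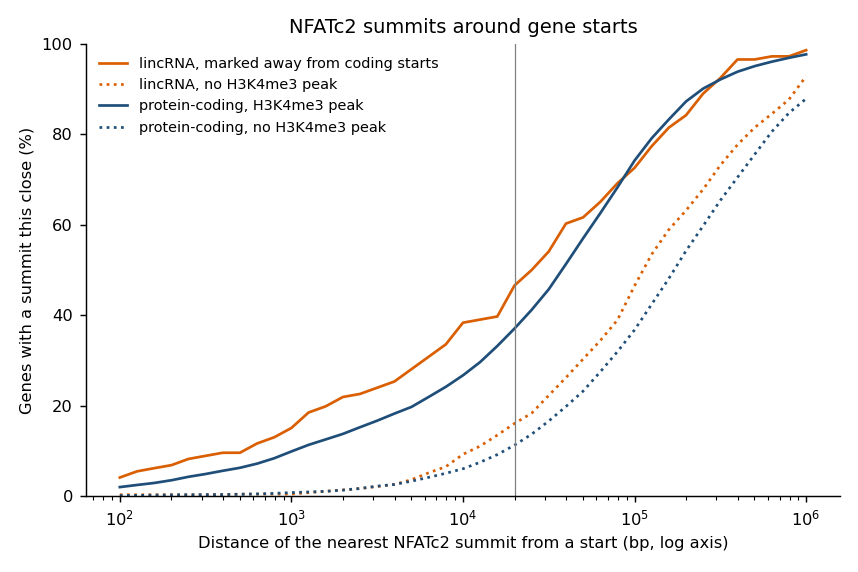
Share of genes (vertical axis, %) with an NFATc2 summit within a given distance of a start (horizontal log axis, bp), for lincRNA genes marked away from coding starts and without an H3K4me3 peak, and for protein-coding genes with and without a peak. The grey line is at 20 kb, where the marked lincRNA genes reach 46.6% and the unmarked 16.1%.

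Among the closest, summits were 4 bp from an alternative start of 9430008C03Rik (51 NFATc2 tags, 31 bp from the start used for its other values), 20 bp from A630072L19Rik (61), 31 bp from Gm16197 (100) and 31 bp from Gm17034 (56). Gm11292 (84 bp, 50 tags), 1110002J07Rik (114 bp, 83) and 4833417C18Rik (119 bp, 114) followed. These are the loci whose summit windows are printed in this section. Gm16197, which RefSeq names Trp53cor1 (lincRNA-p21, a target of p53 next to the cell-cycle inhibitor Cdkn1a), had 821, 734 and 750 H3K4me3 tags, or 49.3, 34.5 and 38.5 RPM, 0.773-fold with curdlan (0.699 to 0.855). 4833417C18Rik had a ratio of 0.917, Gm11292 1.03 and 9430008C03Rik 1.29. Loci with an NFATc2 summit close to the start thus had ratios of curdlan to NT on both sides of the centre, from 0.618 at A630072L19Rik to 1.58 at 1110002J07Rik.

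Over all loci, the median log2 ratio of curdlan to NT was -0.08 with a summit inside the locus (n = 27), -0.05 with a summit within 20 kb (n = 59) and -0.04 with none (n = 75). The 5 loci past 1.5-fold higher all had a summit within 20 kb. This is 5 of 59 (8.47%), beside 0 of 75 without a summit. Of all regions, whatever their distance from a summit, 4.34% were past 1.5-fold higher. Only 2 of the 5 loci were above the centre per kb, and the summit near Gm3764 was 17157 bp away with 18 tags. For lower ratios past 1.5-fold the counts were 1 of 59 with a summit and 1 of 75 without. For curdlan+FK506 over curdlan the medians were 0.03 within 20 kb and 0.02 without. These counts are small and were not tested.

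The windows at marked lincRNA starts were richer in CpG than those at unmarked ones, but the starts were chosen by different rules. A single start was used per gene. For genes with a peak it was the start nearest an H3K4me3 summit, and for genes without a peak the most 5′ start. How far this choice adds to the difference was not tested. In the window of 300 bases at the start, the CpG observed over expected ratio had a median of 0.65 in marked lincRNA genes (middle 50% 0.34 to 0.87), 0.34 in lincRNA genes without a peak, 0.79 in protein-coding genes with a peak and 0.26 in those without. A ratio of at least 0.6 was found for 56.2% of marked and 24.8% of unmarked lincRNA genes. Snhg5 (1.22) and Xist (1.21) had the highest values, and Mir155, Gm17414 and Gm17406 had no CG. Loci with an NFATc2 summit inside had a median of 0.39 (n = 30), beside 0.69 for the others (n = 117).

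**Figure D5:**
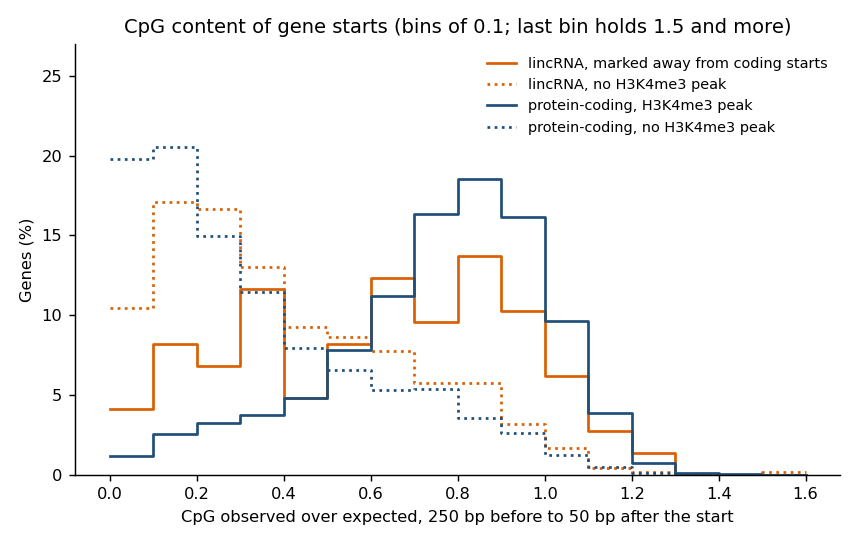
Share of genes (vertical axis, %) by CpG observed over expected ratio from 250 bp before to 50 bp after the start (horizontal axis, bins of 0.1, the last holding 1.5 and more), for marked and unmarked lincRNA and protein-coding genes. Marked lincRNA genes spread over low and high ratios with a median of 0.65, between 0.34 for unmarked lincRNA genes and 0.79 for marked coding genes. The start is that nearest an H3K4me3 summit in marked genes and the most 5′ start in unmarked genes.

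The motif GGAAAA, searched on both strands, was not more frequent at marked promoters. The starts were those used for the CpG ratio, so marked and unmarked genes again differ in how the start was chosen. It was present in 21.9% of marked lincRNA promoters (16.0 to 29.3%), 27.9% of unmarked ones, 19.4% of promoters of coding genes with a peak and 25.8% of those without. Around the 33 NFATc2 summits inside lincRNA loci, in windows of 101 bases, GGAAAA was present in 17 (51.5%, 35.2 to 67.5%), beside 32.9% of all 9438 summits and 36.1% of summits inside regions at protein-coding starts. The shorter GGAAA, which every GGAAAA contains, was present in 28 of the 33 (84.8%), beside 72.8% of all summits. These differences in share were not tested.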

How the data were processed

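H3K4me3 and NFATc2-V5 ChIP-seq were carried out on D1 cells, with 1 ChIP library and 1 input library per condition. Reads had been aligned by the authors to mm9 (bowtie), and peaks called in each library against its own input with MACS (1.4.2 in the file headers), with a p-value threshold of 1e-05, 1 tag kept per position and a band width of 1000 for H3K4me3 and 300 for NFATc2. The deposited lists give the raw count of tags in each peak, the p-value as −log10 multiplied by 10, the fold enrichment as a ratio over background and an FDR as percent. The fold enrichment and p-value served only for alternatives.

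Gene types and starts came from the Ensembl 65 annotation of mm9, and sequences from the NCBI37 genome. RefSeq names were matched by Ensembl gene identifier, or else by symbol or a unique synonym. A gap of at most 1 kb between a peak and any transcript start placed the peak there, and peaks that overlapped by at least 1 bp were merged. Tags were scaled to 1000000 (RPM) by the header total of ChIP tags, whose size sets the precision, and log2 ratios were centred on the median of all regions. Wilson intervals are given for shares and exact (Clopper-Pearson) intervals for ratios of tags, at 95%. They cover counting error only, since tags are not independent molecules. With 1 library per condition no p-value was computed. Conditions were taken from the labels, and the FK506 dose of these libraries is not given in the sources used here.

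Loci were named by rule: lincRNAs of a list of known genes, the 10 loci with the most NT tags, the 8 highest and 8 lowest ratios of curdlan to NT and the 5 of curdlan+FK506 to curdlan with at least 50 tags in 1 list, up to 3 loci for each set of lists, and the 8 closest to an NFATc2 summit, of which 1 summit is not reported here. The members, lists and tests were chosen with earlier results of these data known. The scripts were tested on simulated data and used matplotlib 3.10.9, pysam 0.24.0, scipy 1.17.1, numpy 2.4.6, pandas 2.3.3 and Python 3.11.15.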

Additional observations from a re-analysis of the deposited data

How the results depend on the processing

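No paired analysis was possible because each condition had 1 library. Without centring, the median log2 ratio of the lincRNA loci was -0.19 for curdlan over NT (0 loci past 2-fold), -0.026 for curdlan+FK506 over curdlan and -0.20 for curdlan+FK506 over NT (0 loci higher and 1 lower past 2-fold, against 1 and 0 with centring). Per kb of peak, 0 loci were past 2-fold in curdlan over NT and 0 in curdlan+FK506 over NT. With the fold enrichment of the lists, which is read at the summit against local input, 9 loci were past 2-fold in curdlan over NT (4 higher, 5 lower), 10 in curdlan+FK506 over curdlan (8 higher, 2 lower) and 8 in curdlan+FK506 over NT (4 higher, 4 lower, median 0.0652), and 26 of 49 ratios of named loci kept their sign, beside 34 of 49 per kb and 48 of 49 without centring. The ratio of 4833407H14Rik for curdlan over NT turned to a log2 value of -0.70 with fold enrichment and -0.34 per kb. The cause was not tested. At 1.5-fold, the 3 comparisons held 7, 1 and 9 loci.

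The share of loci with an NFATc2 summit was 25.9% within 5 kb, 35.4% within 10 kb, 61.2% within 50 kb, 23.8% with NFATc2 peaks at a p-value of 1e-10 or less, and 20.4% inside the locus (the latter added after seeing the data). With loci typed as noncoding by RefSeq alone, also added after seeing the data, 96 loci remained. With a window of 1 kb centred on the start, chosen as for the shorter window, 61.0% of marked lincRNA starts held GGAAAA, beside 62.9% of unmarked ones. The shares for coding genes were 54.1% with a peak and 61.6% without. The limit on duplicates and the restriction to genes of more than 1 exon changed nothing, since the header totals were equal and every marked gene already met it. Low-tag loci are limited by depth, with counting intervals that often include 1.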

Other observations

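The H3K4me3 change at lincRNA loci was set beside that at the nearest protein-coding gene with a peak in both lists. For curdlan over NT, Pearson's r of the centred log2 ratios was 0.261 and Spearman's rho 0.144 over 65 loci. For curdlan+FK506 over curdlan r was -0.183 and rho -0.116 over 66 loci, and for curdlan+FK506 over NT r was 0.405 and rho 0.297 over 65 loci. With a neighbour within 10 kb, r was 0.108 (19 loci), 0.00788 (18 loci) and 0.266 (18 loci) in the same order. With the neighbour beyond 10 kb it was 0.327 (46 loci), -0.285 (48 loci) and 0.468 (47 loci). These points share their libraries, and some share a coding neighbour, so the values are a description only.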
